A study of Mus musculus with 6 samples.

Results

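The genes described here are 40 genes of mitosis and the spindle checkpoint, taken by symbol from the FPKM tables of an RNA-seq study of BaF3 cells. All 40 were in both tables, among 16799 genes found in both, and all 40 passed the filter on low values that left 11050 genes for testing. The members were given as a list of symbols. FPKM correct for transcript length and for library size, so they can be compared between genes as levels per length.

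BaF3 is a mouse pro-B line that depends on interleukin-3, and every group was grown with 2 ng/mL interleukin-3 and 10% serum, nucleofected with a plasmid and sorted 24 h later. The ICN group received pmax-Clover-ICN, which carries the intracellular part of NOTCH1. The CTdel group received pmax-Clover-CTdel. The series' design text names a mutated ICN plasmid instead, which is taken here to be the same one. The con group received pmax-Clover alone, which encodes the green fluorescent protein Clover. Each group had 2 libraries, numbered 1 and 2, and each number came as a table of its own. Changes were therefore taken within a table, and a change in replicate 1 or 2 is one within that table. Expression was transient. The sources used here give neither the plasmids' promoter, nor the exact change in CTdel, nor the species from which ICN was taken. The labels do not name separate cultures for the replicates, and p-values then measure only the spread between these libraries, which may be technical.

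Relative depth, read from small RNA genes of equal length, was 0.963 to 1.08 times that of con replicate 1, and read totals are unknown. Notch1 itself stood at 190.02 and 888 FPKM in ICN, 84.9 and 25.4 FPKM in CTdel, and 0.89 and 1.72 FPKM in con, so all 4 libraries with an insert lay above both con libraries. Of 13 markers of the B lineage, 10 were in both tables and 2 passed the filter, Cd79a and Cd79b.

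Mitosis is driven by Cdk1 bound to A- and B-type cyclins, which the Cdc25 phosphatases switch on and the Plk1 and Aurora kinases assist. The spindle checkpoint holds the anaphase-promoting complex (APC/C) back until every kinetochore is attached to microtubules. Once it is satisfied, Cdc20 and the APC/C mark cyclin B and securin for destruction, and separase parts the sister chromatids. Most of these genes are transcribed mainly in the G2 and M phases, so in a growing culture their RNA is known to track the share of cells near division. In bulk RNA, fewer cells in mitosis and less of a transcript per cell cannot be told apart.

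Many genes of this class are known to carry a CHR element (TTTGAA), bound by the MuvB complexes with B-Myb and FoxM1, and CCAAT boxes, bound by NF-Y, near their start. RefSeq promoter windows of GRCm38.p6, from 250 bases before to 50 after the start, were at hand for 32 of the 40 members. The others were Ccna2, Cdc25c, Foxm1, Aurkb, Incenp, Spc24, Tpx2 and Kif20a. Both strands were searched for TTTGAA, for its variant TTCGAA and for CCAAT, which were counted separately. Different motifs can share no more than an end base. CCAAT on opposite strands can overlap, as in Ube2c, and was then counted as 2 copies. Shares are of genes, and a gene with several windows was given its highest count. The letters TTTGAA stood in a window of 23 of the 32 members (71.9%), against 20.2% of all 27025 genes with a window. The variant TTCGAA stood in 4 of 32 (12.5%), against 1.8% of all genes. CCAAT was found in 24 (75%), against 41.1% of all genes, and at least 2 copies in 16 (50%), against 13.3%. Both TTTGAA and CCAAT were present among the windows of 20 of the 32 members (62.5%), against 8.97% of all genes. These are matches of letters, not measured binding sites.

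The 150 bases before the start are shown for members from both the entry and the anaphase machinery that were lower in both ICN libraries than in both con libraries and carry TTTGAA in their window, 5′ to 3′ on the gene's strand, with TTTGAA and CCAAT on either strand in capitals. On the opposite strand these read TTCAAA and ATTGG. The stretches, from RefSeq in GRCm38.p6, are chr2:164769779-164769928 (plus strand) for Ube2c, chr4:118437344-118437493 (minus) for Cdc20, chr10:69352913-69353062 (minus) for Cdk1, chr9:70421555-70421704 (minus) for Ccnb2 and chr7:122159285-122159434 (plus) for Plk1.
Ube2c: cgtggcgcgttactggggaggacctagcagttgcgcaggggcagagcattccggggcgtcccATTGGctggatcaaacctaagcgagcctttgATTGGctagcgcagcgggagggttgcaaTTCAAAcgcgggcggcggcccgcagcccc
Cdc20: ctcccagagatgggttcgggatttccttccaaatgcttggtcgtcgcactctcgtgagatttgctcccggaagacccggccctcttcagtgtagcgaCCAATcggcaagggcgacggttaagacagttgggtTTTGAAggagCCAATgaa
Cdk1: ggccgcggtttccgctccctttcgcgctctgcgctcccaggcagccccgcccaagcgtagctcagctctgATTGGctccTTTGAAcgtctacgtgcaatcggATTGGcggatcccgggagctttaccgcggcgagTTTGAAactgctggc
Ccnb2: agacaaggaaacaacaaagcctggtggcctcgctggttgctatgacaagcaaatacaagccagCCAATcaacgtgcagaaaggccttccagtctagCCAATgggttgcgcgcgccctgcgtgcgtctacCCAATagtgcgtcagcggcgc
Plk1: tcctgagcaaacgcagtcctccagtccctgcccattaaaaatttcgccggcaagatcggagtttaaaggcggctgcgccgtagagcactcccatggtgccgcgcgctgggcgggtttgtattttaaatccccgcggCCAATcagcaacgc
Cdc20 carries TTTGAA with its first base at -18, between CCAAT boxes at -53 and -8, counted from -1 for the base before the start. Ube2c carries the element on the opposite strand at -29, with CCAAT boxes at -88 and -57 in the stretch shown. Cdk1 has copies at -71 and -15. The Ccnb2 stretch shows CCAAT boxes at -87, -54 and -21, and its TTTGAA copies lie outside it, at -167 and 5. In Plk1 the CCAAT box is at -14 and TTTGAA at 31, after the start. Espl1 met the same terms and is not shown. Ccnb1 and Cdc25b, also lower in both ICN libraries, have no TTTGAA in their windows. Aurka, Bub3, Ndc80, Hmmr and Kif23 carry TTTGAA, and their ICN and con libraries overlapped. Members with TTTGAA had a median log2 change in ICN of -0.63 (23 genes) and those without it one of -0.56 (9 genes), given as a description.

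In ICN cells the mitotic genes lay lower than in con cells, by a median of 0.62 on the log2(FPKM + 1) scale, while the median over all 11050 genes was 0.00. The fitted change was negative for 38 of the 40 members, against 49.8% of all genes, and ran from -1.02 for Ube2c to 0.04 for Kif23. None of the 40 passed limma's test at an adjusted p under 0.05 (adjusted p 0.176 to 0.976), where 4 of 11050 genes did (0.0362%), all of them higher. At an unadjusted p under 0.05 there were 11 members, all lower, and 5.03% of all genes were lower by that measure. The question behind this comparison is what the active intracellular part of NOTCH1 does to gene expression in these cells.

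The difference was uneven between the tables. In replicate 1 the median of the members was -0.28 (range -0.97 to 0.44), and in replicate 2 it was -0.88 (range -1.65 to 0.41), with all genes at 0.02 in both. Lower in both tables were 33 members (82.5%, against 26.7% of all genes). In replicate 2, 14 members lay more than 1 below con on the log2 scale (35.0%, against 6.29% of all genes), and in replicate 1 there were 0 (1.88% of all genes). Both ICN libraries lay below both con libraries for 30 members (19.6% of all genes), a count that sets FPKM of the separate tables side by side. Summed over the 40 genes, FPKM came to 1474 and 1271 in ICN, 1680.4 and 2494 in CTdel, and 1822 and 2284 in con, so ICN had the lowest sum in each table.

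The result rests unevenly on the ICN libraries. Without ICN replicate 1 the median was -0.92 and 19 members passed, all lower (smallest adjusted p = 0.00365, Ccna2). Calls over all genes rose as well in that fit, to 1470 of 11050, with 946 higher and 524 lower (4.74%). Those were Anln, Aurkb, Birc5, Bub1b, Ccna2, Ccnb1, Ccnb2, Cdc25b, Cdk1, Cenpa, Cenpf, Espl1, Foxm1, Kif2c, Mad2l1, Nuf2, Top2a, Ttk and Ube2c. Without ICN replicate 2 the median was -0.17 and 0 passed, and the signs of 5 members turned: Birc5 (0.10), Bub1 (0.03), Incenp (0.02) and Kif20a (0.22) lay above 0 there and Ndc80 (-0.10) below it. Each of these fits, without ICN replicate 1 or without ICN replicate 2, takes its lone ICN library to vary like the other groups.

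**Figure D1:**
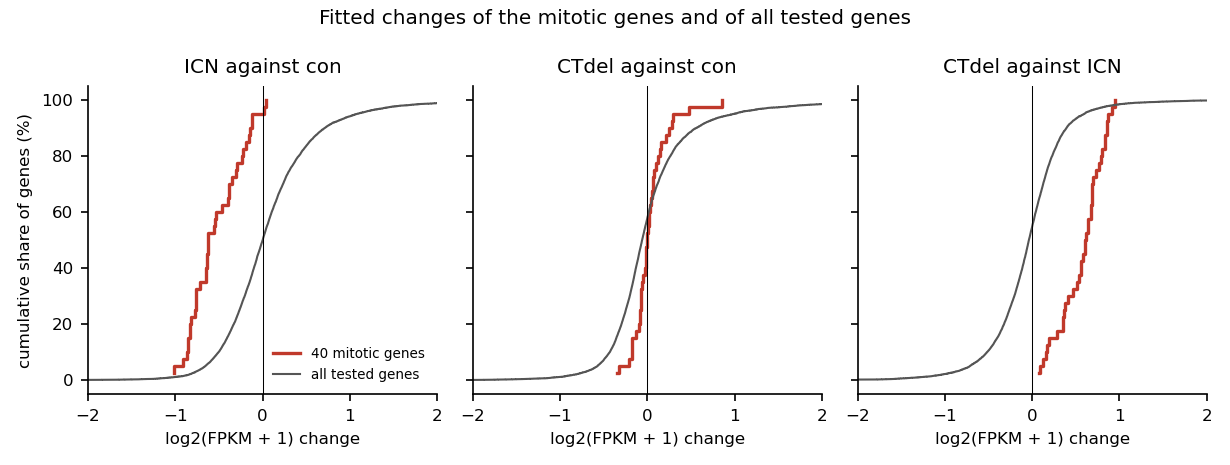
Cumulative share of genes (y axis, percent) at or below each fitted log2(FPKM + 1) change (x axis, drawn from -2 to 2) for the 40 mitotic genes (red) and all 11050 tested genes (grey), in ICN against con, CTdel against con and CTdel against ICN. The members lie left of all genes in ICN against con (median -0.62 against 0.00), close to them in CTdel against con (0.00 against -0.06) and right of them in CTdel against ICN (0.61 against -0.04).

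The 9 genes of mitotic entry were all lower in ICN in both tables, with a median change of -0.82 (-0.35 in replicate 1, -1.06 in replicate 2). Cdc25b, a phosphatase that activates Cdk1 (Gene ID 12531, chromosome 2, 131186436 to 131198511 in GRCm38.p6), stood at FPKM 10.1 and 10.9 in ICN, 14.1 and 30.4 in CTdel, and 20.8 and 23.6 in con. Its ICN libraries were close to each other and both below every other library. Its mean was 10.5 ± 0.58 in ICN and 22.2 ± 1.99 in con (SD, n = 2 each), a log2 change of -1.01 (SE 0.292, limma adjusted p = 0.244) that was nearly the same in both tables (-0.97 and -1.05).

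Ccna2, cyclin A2 (chromosome 3, 36564865 to 36573038), had the highest mean level of this group. It stood at FPKM 67.8 and 33.0 in ICN, 71.7 and 105 in CTdel, and 76.0 and 106 in con. Only the second ICN library lay well below the rest. The log2 change was -0.16 in replicate 1 and -1.65 in replicate 2, the lowest of the 40 genes in that table, and -0.91 in the fit (SE 0.413, limma adjusted p = 0.365).

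Cdk1, the kinase itself, followed the same course, with FPKM 31.3 and 16.9 in ICN, 34.8 and 50.3 in CTdel, and 36.1 and 48.1 in con. Ccnb1 and Ccnb2, the B-type cyclins, had log2 changes in ICN of -0.28 and -0.35 in replicate 1 and of -1.36 and -1.35 in replicate 2. Annotated pseudogenes of Ccnb1, Ccnb2 and Kif4 exist in mouse, and the sources used here do not say how reads were shared with them.

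Plk1, the polo-like kinase of mitotic entry and spindle assembly, differed from the cyclins in being lower by a like amount in both tables (log2 change -0.74 and -0.77, limma adjusted p = 0.255). It stood at FPKM 37.6 and 55.4 in ICN, 46.8 and 101 in CTdel, and 63.5 and 95.5 in con. Aurka, the Aurora kinase of centrosomes and spindle poles, stood at FPKM 30.2 and 44.9 in ICN, 45.2 and 70.9 in CTdel, and 42.8 and 56.0 in con. Its ICN and con libraries overlapped across the tables, with changes of -0.49 and -0.31. Cdc25c and Foxm1, the forkhead factor that drives transcription of many of these genes, had fitted log2 changes of -0.63 and -0.64.

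**Figure D2:**
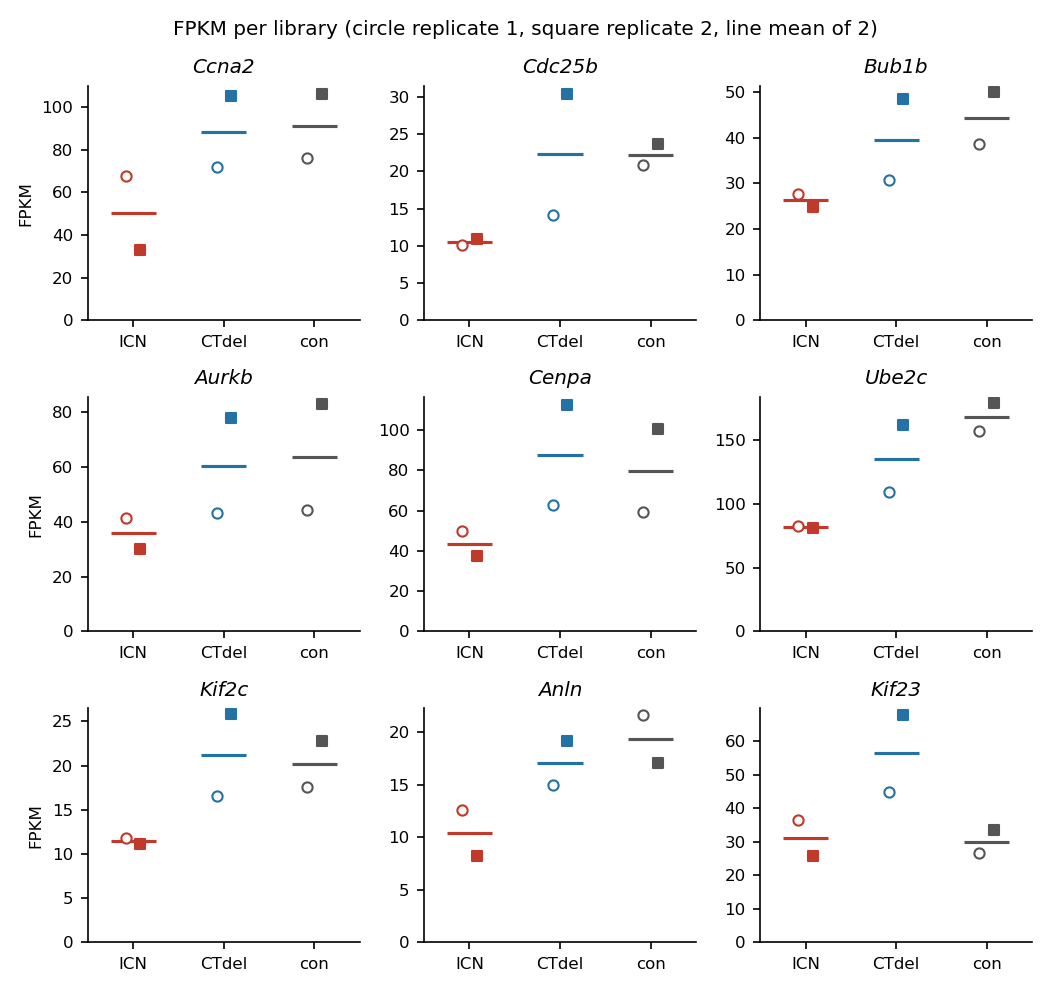
FPKM (y axes, linear from 0) of 9 members in the ICN, CTdel and con libraries, 1 panel a gene, with a circle for replicate 1, a square for replicate 2 and a line at the mean of the 2. Both ICN libraries lie below both con libraries for each gene except Kif23, and the replicate 2 libraries of CTdel lie above those of replicate 1.

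The 5 spindle checkpoint genes were lower in both tables, with a median of -0.62 (-0.11 in replicate 1, -0.98 in replicate 2), with a range of fitted changes from -0.76 to -0.12. Bub1b, which encodes BubR1, a part of the complex that holds Cdc20 back, stood at FPKM 27.7 and 24.9 in ICN, 30.8 and 48.4 in CTdel, and 38.7 and 50.1 in con. Both ICN libraries lay below the others, for a log2 change of -0.72 (SE 0.253, limma adjusted p = 0.295). Mad2l1, whose product Mad2 is the checkpoint's diffusible inhibitor, had FPKM 42.0 and 19.3 in ICN, 43.2 and 50.04 in CTdel, and 47.3 and 51.1 in con, so its low value was in a single library. Ttk, the Mps1 kinase at the top of the checkpoint, likewise had FPKM 12.6 and 7.08 in ICN, 12.3 and 18.4 in CTdel, and 13.6 and 16.6 in con.

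Bub3 and Bub1 stood nearer to con. Bub3, a kinetochore adaptor and the most abundant of the 5, had FPKM 73.3 and 85.1 in ICN, 77.2 and 101 in CTdel, and 76.7 and 98.5 in con, with ICN changes of -0.06 and -0.21. Bub1, the kinase that recruits the other checkpoint proteins, had FPKM 18.5 and 16.7 in ICN, 20 and 26.6 in CTdel, and 19.6 and 18.8 in con. Their fitted changes in ICN were -0.14 (SE 0.194) and -0.12 (SE 0.224), less than their standard errors.

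The chromosomal passenger complex corrects faulty attachments and was represented by its kinase Aurkb, its scaffold Incenp and survivin (Birc5). All 3 were lower in ICN in replicate 2 (median -1.32), while in replicate 1 their median was 0.00. Aurkb had FPKM 41.5 and 29.9 in ICN, 43.1 and 77.8 in CTdel, and 44.5 and 82.9 in con, with changes of -0.10 and -1.44. Incenp, the most abundant, had FPKM 79.5 and 61.7 in ICN, 94.9 and 127 in CTdel, and 79.7 and 101 in con. Birc5 had FPKM 64.3 and 42.3 in ICN, 66.1 and 97.3 in CTdel, and 56.1 and 107 in con, so it was higher than con in replicate 1 (0.19) and lower in replicate 2 (-1.32). For Aurkb and Birc5 the con libraries differed widely, with replicate 2 well above replicate 1.

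The 7 kinetochore and centromere genes had a median of -0.53 in ICN (-0.25 in replicate 1, -0.87 in replicate 2). Cenpa, the histone H3 variant that marks centromeres (chromosome 5, 30666877 to 30674837), had FPKM 49.7 and 37.3 in ICN, 62.7 and 113 in CTdel, and 59.2 and 100.4 in con. Both ICN libraries were the lowest of their tables, for a log2 change of -0.83 (SE 0.345, limma adjusted p = 0.341). Nuf2, Spc24, Spc25 and Ndc80 form the NDC80 complex, the kinetochore's grip on microtubules, and its subunits differed in size and sign. Nuf2 had changes of -0.03 and -1.27, Spc25 -0.19 and -0.87, Spc24 -0.03 and -0.72, and Ndc80 -0.36 and 0.41, in replicates 1 and 2.

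Ndc80 had FPKM 13.6 and 20.6 in ICN, 13.1 and 24.1 in CTdel, and 17.7 and 15.3 in con. Spc24 had FPKM 31.2 and 27.0 in ICN, 28.2 and 37.8 in CTdel, and 32.0 and 45.0 in con. Cenpe, the kinetochore motor that brings chromosomes to the spindle equator, also differed in sign between the tables, with FPKM 11.4 and 16.6 in ICN, 12.9 and 16.7 in CTdel, and 16.1 and 14.9 in con. For Ndc80 and Cenpe con replicate 2 lay below con replicate 1, while ICN and CTdel replicate 2 lay above their replicate 1. Cenpf, a large kinetochore protein of G2 and M phase, had a fitted change of -0.63.

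Of the 4 anaphase genes, all were lower in both tables (median -0.75, with -0.46 and -0.94 in the tables). Ube2c, the ubiquitin-conjugating enzyme that starts chains for the APC/C (Gene ID 68612, chromosome 2, 164769929 to 164772902), had the lowest fitted change and the smallest p of the 40. It stood at FPKM 82.7 and 81.2 in ICN, 109 and 162 in CTdel, and 157 and 179 in con. Its ICN libraries were nearly equal and did not overlap con, with ICN at 0.527 and 0.454 times con in replicates 1 and 2. The mean was 81.9 ± 1.11 in ICN and 168 ± 15.3 in con (SD, n = 2 each), a log2 change of -1.02 (SE 0.226, unadjusted p = 0.00432, limma adjusted p = 0.176).

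Cdc20, the APC/C activator, had FPKM 52.5 and 72.3 in ICN, 71.0 and 117 in CTdel, and 76.0 and 123 in con (log2 change -0.64, limma adjusted p = 0.262). Espl1, which encodes separase, had FPKM 10.2 and 7.52 in ICN, 12.9 and 21.7 in CTdel, and 13.8 and 20.4 in con. Pttg1, which encodes securin, the inhibitor of separase, stood closer to con, with FPKM 47.5 and 66.4 in ICN, 56.3 and 84.4 in CTdel, and 56.3 and 76.6 in con. So within this group the enzymes Ube2c and Espl1 had changes of -1.02 and -0.86, and securin one of -0.22 (SE 0.193).

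The 7 spindle genes had a median of -0.38 in ICN. Their medians in the tables, -0.42 and -0.49, were the closest of the groups. Single genes were less even, with 2 of the 7 differing in sign between the tables. Kif2c, a kinesin that takes microtubules apart at centromeres, had FPKM 11.8 and 11.1 in ICN, 16.6 and 25.8 in CTdel, and 17.6 and 22.8 in con. Its ICN values were close together and below all others (log2 change -0.76, SE 0.239, limma adjusted p = 0.267). Top2a, the topoisomerase that untangles chromosomes and the most abundant of the 40 on average, had FPKM 152 and 88.2 in ICN, 162 and 204 in CTdel, and 190.25 and 176 in con. Its con libraries were close together, and the second ICN library was far below the first.

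Tpx2, which activates Aurora A on the spindle, had changes in ICN of -0.42 and -0.65, Kif11, the motor that pushes the poles apart, -0.28 and -0.47, and the chromokinesin Kif4 -0.10 and -0.49. Nusap1 and Hmmr, both microtubule-binding spindle proteins, differed in sign between the tables. Nusap1 had FPKM 33.7 and 35.4 in ICN, 37.5 and 56.6 in CTdel, and 45.4 and 31.2 in con. Hmmr had FPKM 25.7 and 34.2 in ICN, 28.6 and 40.1 in CTdel, and 36.7 and 31.5 in con. In both genes ICN replicate 2 lay between the 2 con libraries.

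The 5 genes of the central spindle and cytokinesis had the median nearest to 0 in ICN (-0.30, with -0.17 and -0.36 in the tables). Anln, anillin, the scaffold of the contractile ring (chromosome 9, 22331214 to 22389211), had FPKM 12.6 and 8.19 in ICN, 15.0 and 19.1 in CTdel, and 21.6 and 17.1 in con, for a log2 change of -0.85 (SE 0.271, limma adjusted p = 0.269). Ect2, the exchange factor that activates RhoA at the equator, had FPKM 11.5 and 15.4 in ICN, 11.6 and 18.2 in CTdel, and 21.0 and 16.9 in con, with its change mostly in replicate 1 (-0.82, against -0.13 in replicate 2). Prc1, the bundler of the central spindle, had FPKM 38.4 and 37.2 in ICN, 41.8 and 58.5 in CTdel, and 43.3 and 46.4 in con. For Anln, Ect2 and Prc1 both ICN libraries lay below both con libraries.

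Kif23 and Kif20a, kinesins of the central spindle, did not share that order. Kif23 (Gene ID 71819, chromosome 9, 61917277 to 61946810) had FPKM 36.6 and 25.7 in ICN, 44.8 and 67.7 in CTdel, and 26.7 and 33.3 in con. Kif20a had FPKM 31.0 and 24.3 in ICN, 35.8 and 63.5 in CTdel, and 27.4 and 42.2 in con. Both were above con in ICN replicate 1 and below it in ICN replicate 2, and both were highest in CTdel in each table.

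**Figure D3:**
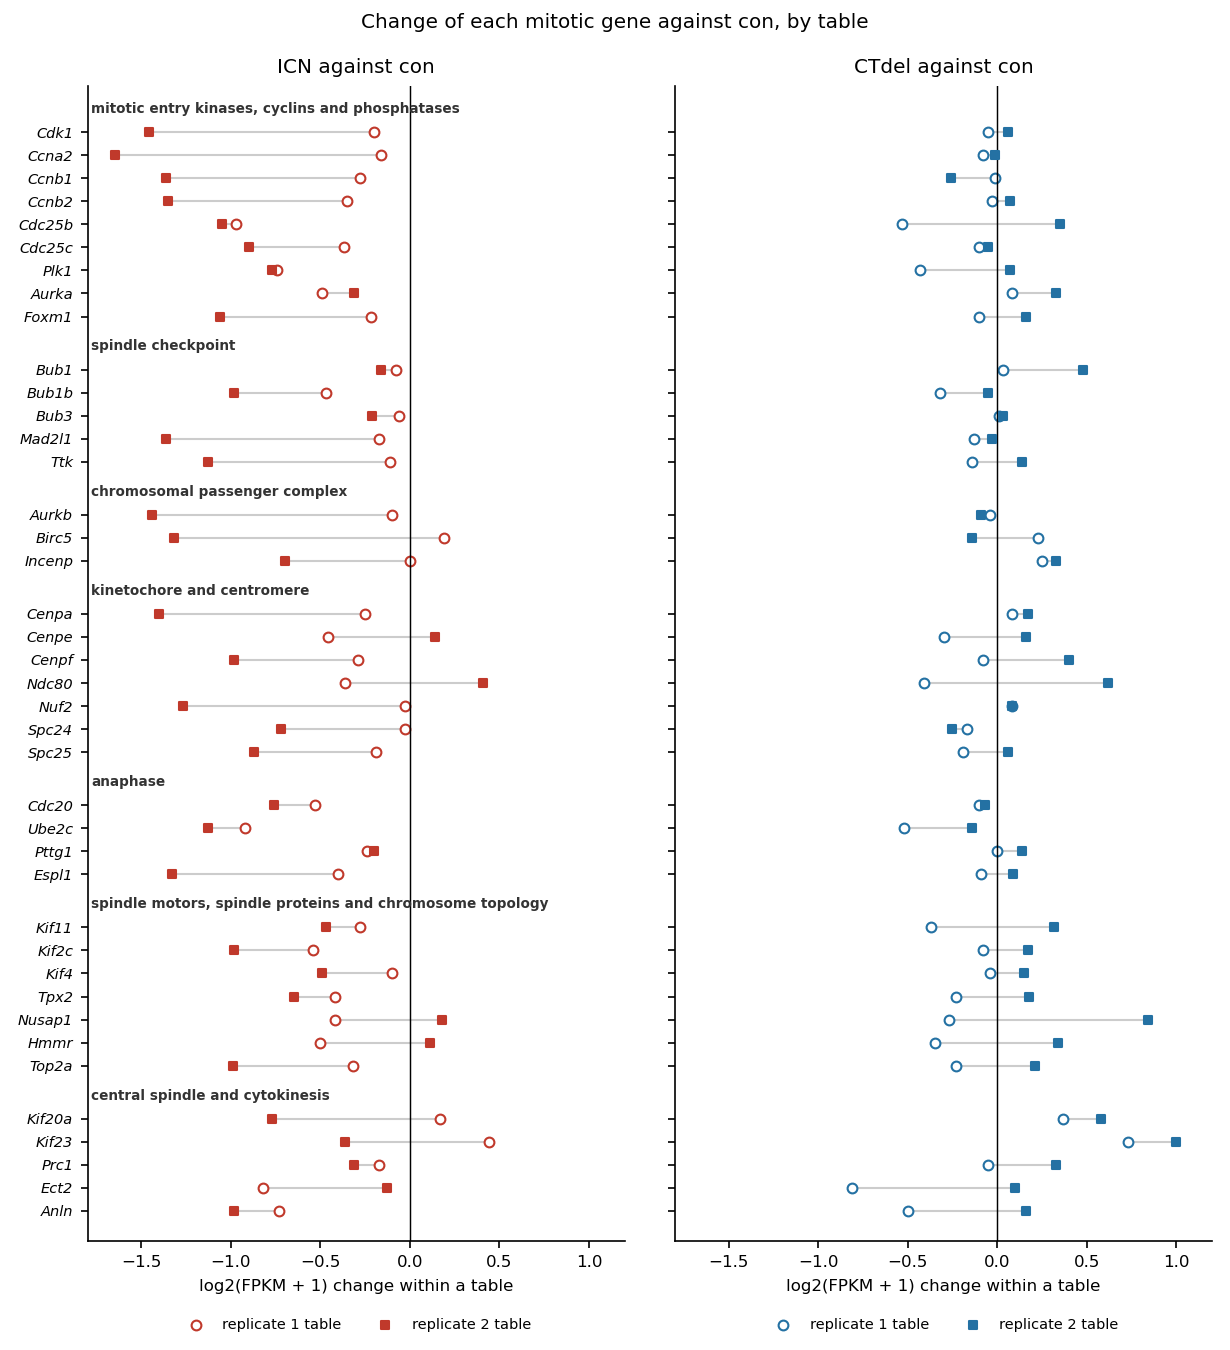
Change against con on the log2(FPKM + 1) scale (x axis) of each of the 40 members (rows) in ICN (left) and CTdel (right), taken within the table of replicate 1 (open circles) and of replicate 2 (filled squares). In ICN 33 members lie left of 0 in both tables and the squares reach -1.65, while in CTdel 22 members have opposite signs in the tables.

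In CTdel cells the mitotic genes stood close to con on balance. The median change was 0.00, against -0.06 over all genes, with 20 members above 0 (42.1% of all genes) and 20 below, and a range from -0.35 for Ect2 to 0.86 for Kif23. None passed limma's test (adjusted p at least 0.341), where 156 of 11050 genes did (1.41%). At an unadjusted p under 0.05 there was 1 member, Kif23, higher in CTdel, beside 7.79% of all genes. Signs differed between the tables for 22 members, with medians of -0.09 in replicate 1 and 0.14 in replicate 2. Higher in both tables were 9 (22.5%, against 26.2% of all genes), and lower in both another 9 (22.5%, against 35.8%).

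The con and CTdel libraries shared a difference between replicates. Replicate 2 was above replicate 1 for all 40 members in CTdel (median 0.57) and for 31 in con (median 0.35), while in ICN it was so for 12 (median -0.24). Over all genes those medians were 0.02 in CTdel, -0.03 in con and -0.03 in ICN. Leaving out CTdel replicate 1 gave a CTdel median of 0.28, and leaving out CTdel replicate 2 one of -0.27.

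Kif23, whose kinesin forms the centralspindlin complex at the midzone, was the member furthest from con. Its mean was 56.3 ± 16.2 in CTdel and 30.0 ± 4.69 in con (SD, n = 2 each), with log2 changes of 0.73 and 1.0 in the tables and 0.86 in the fit (SE 0.301, unadjusted p = 0.0295, limma adjusted p = 0.341). Both CTdel libraries lay above both con libraries. Fitted to the CTdel and con libraries alone, Kif23 passed (adjusted p = 0.0339), as it did without ICN replicate 1 (0.0357) or ICN replicate 2 (0.0348). In those fits the genes called higher came to 5.18%, 5.17% and 5.19% of all genes, so 1 of 40 members is below the share over all genes. Bub1 was the only other member whose CTdel libraries both lay above con, for 2 of 40 against 18.3% of all genes, and its log2 change was 0.25 (SE 0.224).

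The remaining members that were higher in CTdel in both tables were Aurka, Bub3, Incenp, Cenpa, Nuf2, Pttg1 and Kif20a, with fitted changes from 0.02 (Bub3) to 0.48 (Kif20a). Those lower in both were Ccna2, Ccnb1, Cdc25c, Bub1b, Mad2l1, Aurkb, Spc24, Cdc20 and Ube2c, from -0.33 (Ube2c) to -0.05 (Ccna2). Most of these lie within a standard error of 0. Of the 40 signs in CTdel, 16 turned without CTdel replicate 1, 14 without CTdel replicate 2, 15 without con replicate 1 and 10 without con replicate 2. Under other scalings 2 turned with a common FPKM sum, 4 with quantile normalization and 6 with median ratio scaling.

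The difference between the plasmid forms was tested directly. In CTdel cells all 40 members had a fitted level above that in ICN cells (45.4% of all genes did), with a median of 0.61 against -0.04 over all genes and a range from 0.08 (Ndc80) to 0.95 (Cenpa). None passed limma's test (smallest adjusted p = 0.654), where 2 of 11050 genes did (0.0181%), both lower. By unadjusted p under 0.05 there were 13 members, all higher in CTdel, beside 3.49% of all genes. Both comparisons with con use the same con libraries, so this contrast is the one that sets the 2 groups against each other. The groups differed in the level of Notch1 RNA as well as in the form of the insert. Notch1 stood at 190 and 888 FPKM in ICN and at 84.9 and 25.4 FPKM in CTdel. Form and level cannot be told apart here, and the part of either was not tested.

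Here too the tables differed, with a median of 0.15 in replicate 1 and 1.01 in replicate 2. Higher in CTdel in both tables were 36 members (90.0%, against 24.0% of all genes), the exceptions being Ttk, Ndc80, Spc24 and Kif11. Both CTdel libraries lay above both ICN libraries for 29 members (15.6% of all genes). Kif2c had the smallest p, with a mean of 21.2 ± 6.51 in CTdel and 11.4 ± 0.474 in ICN (SD, n = 2 each) and a log2 difference of 0.80 (SE 0.239, unadjusted p = 0.0158, limma adjusted p = 0.654). Cenpa had a mean of 87.7 ± 35.4 in CTdel and 43.5 ± 8.78 in ICN, a difference of 0.95 (SE 0.345, limma adjusted p = 0.668).

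Without ICN replicate 1 the median difference was 0.93 and 18 members passed, all higher in CTdel, where 891 of 11050 genes were called, 346 of them higher (3.13%). Without ICN replicate 2 it was 0.25, without CTdel replicate 2 it was 0.34, and none passed in those fits. The difference was larger in the second table, where the members' median against con was -0.88 in ICN and 0.14 in CTdel.

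Other genes of mitosis, from lists apart from the 40, were also lower in ICN, by less. Of 105 such genes 104 were tested, with a median of -0.32 (-0.13 in replicate 1, -0.53 in replicate 2), 82 of them negative (49.8% of all genes) and 58 lower in both tables (55.8%, against 26.7% of all genes). None passed limma's test, and 12 had an unadjusted p under 0.05, all lower (5.03% of all genes). In CTdel their median was -0.04 with 0 past the test and 3 at an unadjusted p under 0.05, 2 higher (7.79% of all genes) and 1 lower. Against ICN their CTdel levels had a median difference of 0.29, 82 positive (45.4% of all genes) and 0 past the test, with 10 at an unadjusted p under 0.05, all higher (3.49% of all genes).

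By list the ICN medians were -0.16 for 17 APC/C subunits and regulators, -0.24 for 19 condensin and cohesin genes, -0.24 for 28 other centromere and kinetochore genes, -0.51 for 20 other spindle and cytokinesis genes and -0.45 for 20 other mitotic kinases and regulators. Cdkn3, a phosphatase that acts on Cdk1 and Cdk2, had the lowest change of them. It stood at FPKM 6.85 and 6.27 in ICN, 10.5 and 18.8 in CTdel, and 14.7 and 14.9 in con, for a log2 change in ICN of -1.06 (SE 0.277, limma adjusted p = 0.222). Its ICN libraries lay below all others.

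Ube2s, the enzyme that extends the chains Ube2c begins, had FPKM 183 and 181 in ICN, 225 and 269.7 in CTdel, and 253 and 351 in con (log2 change in ICN -0.71, limma adjusted p = 0.252). Anapc1, the largest APC/C subunit, had a change of -0.48. Bora, the cofactor through which Aurora A activates Plk1, had FPKM 19.2 and 12.2 in ICN, 20.2 and 24.8 in CTdel, and 26.8 and 31.4 in con (-0.88). Aspm, a spindle pole gene known from microcephaly, and the kinesin Kif22 had changes of -0.74 and -0.67. Ncapg of condensin had -0.70, the cohesin regulator Pds5a -0.57, Ska2 of the outer kinetochore -0.66 and borealin (Cdca8) of the passenger complex -0.50. None of these passed the test.

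In CTdel the genes of these lists with the smallest p were in part higher and in part lower. Cenpl of the centromere had a log2 change of 0.63 (FPKM 11.5 and 16.5 in CTdel, 9.29 and 7.89 in con) and the cohesin subunit Stag2 one of 0.52. The kinesin Kif2a had -0.57, Cdc23 of the APC/C -0.36, Zwilch of the kinetochore -0.33, the centriole kinase Plk4 -0.34, and Pkmyt1, an inhibitory kinase of Cdk1, 0.52. Anapc16 had 0.29 and Numa1 of the spindle poles 0.22, and Pds5a, named for ICN too, had -0.43. The limma adjusted p of these was at least 0.406. Stag2 was higher in ICN as well (0.51).

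**Figure D4:**
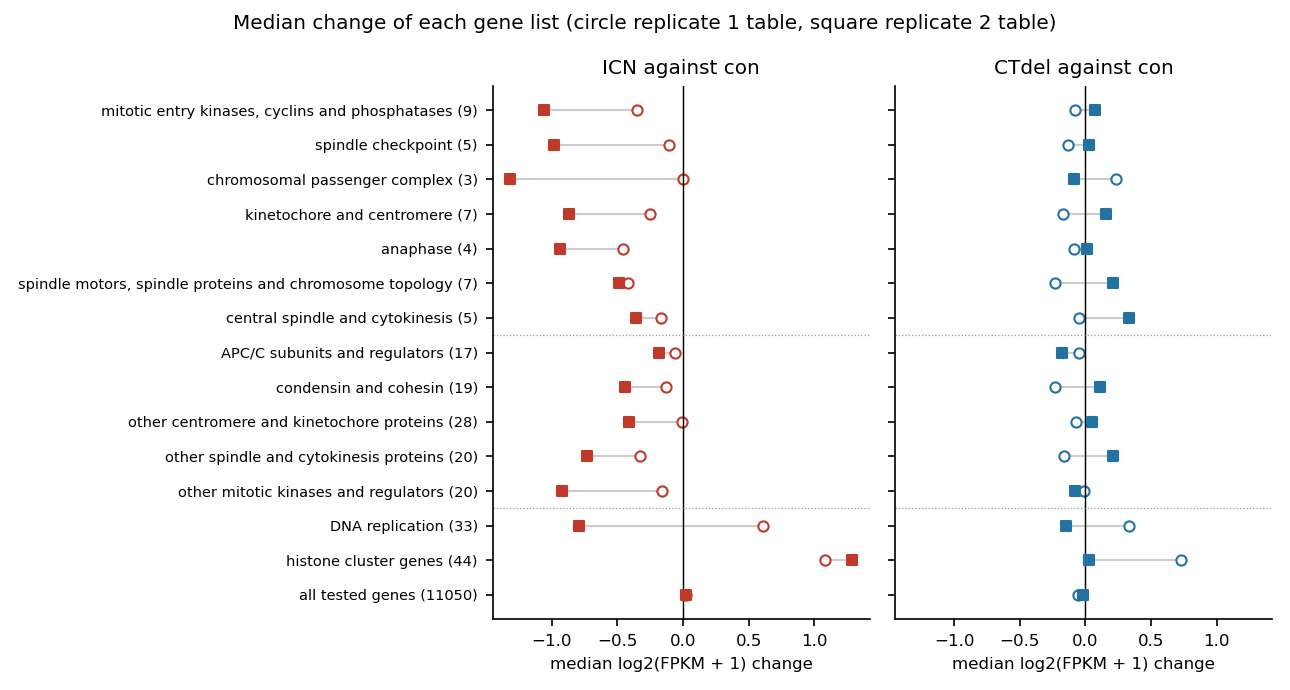
Median change against con on the log2(FPKM + 1) scale (x axis) of each gene list (rows, with the number of genes tested) in ICN (left) and CTdel (right), for the table of replicate 1 (circles) and of replicate 2 (squares). In ICN the DNA replication list lies at 0.61 in replicate 1 and -0.79 in replicate 2, while the mitotic lists lie at or below 0.00 in both tables.

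Several other measures also differed between the groups or the replicates, not all in the direction of the mitotic genes. Their part in the result was not tested. The 33 DNA replication genes, which mark S phase, had a median change in ICN of 0.61 in replicate 1, where 33 of 33 were higher, and of -0.79 in replicate 2, where 32 of 33 were lower. In replicate 1 the mitotic genes were lower in ICN (median -0.28) while the replication genes were higher. Summed FPKM of the replication genes was 2163 and 1507 in ICN, 1861 and 2413 in CTdel, and 1377 and 2617 in con, so con itself differed widely between the replicates. In CTdel their median change was 0.33 in replicate 1 and -0.15 in replicate 2. None of the 33 passed the test in ICN, CTdel or CTdel against ICN, and at an unadjusted p under 0.05 there were 0, 1 and 0.

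Cdkn1a, which encodes p21, an inhibitor of cyclin-dependent kinases, had FPKM 254 and 820.4 in ICN, 187 and 106 in CTdel, and 188 and 131 in con. Its second ICN library was by far the highest, and the summed level of the mitotic genes was lowest there. The log2 change in ICN was 0.43 in replicate 1 and 2.64 in replicate 2 (limma adjusted p = 0.323). Notch1 was also highest in that library, at 888 FPKM. Histone cluster genes, a list gathered by name, had a median change in ICN of 1.17 over 44 genes (1.08 and 1.29 in the tables). In ICN 0 passed the test and 25 had an unadjusted p under 0.05, all higher (10.0% of all genes). In CTdel their median was 0.36 (0.73 and 0.03 in the tables). There 1 of the 44 passed limma's test, higher, where 144 of 11050 genes were called higher. At an unadjusted p under 0.05, 8 were higher in CTdel (7.79% of all genes) and 1 lower.

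Markers of other cell types differed between the groups as well, and their part in the result was not tested either. Of 13 myeloid markers 11 were in both tables and 7 were tested. Their summed FPKM was 378 and 245 in ICN, 649 and 646 in CTdel, and 179 and 112 in con. In CTdel 3 of the 7 passed limma's test, all higher, where 144 of 11050 genes were called higher. Among them was Spi1, the transcription factor PU.1 (log2 change 3.03, limma adjusted p = 0.017). Spi1 made up much of the CTdel sums, at 281 and 463 FPKM. Fitted changes were positive for 6 of the 7, with Fcer1g at 0.25, and Lyz2 had -0.13. The mast cell markers, 5 of 9 in both tables and 3 tested, summed to 118 and 88.6 in ICN, 87.3 and 64.8 in CTdel, and 268 and 199.7 in con. Most of that sum was Gata2. In CTdel 2 of the 3 passed the test, both lower, where 12 of 11050 genes were called lower, while Hdc had a log2 change of 1.54. B-lineage markers summed to 8.6 and 7.8 in ICN, 10.1 and 18.8 in CTdel, and 4.2 and 5.8 in con. In every library their defining members stood near 0, with Ebf1 at most 0.02 and Igll1 at most 0.13. T and NK cell markers, 7 of 9 in both tables, summed to at most 3.2 in any library. The fibroblast and endothelial list, 4 of 6 in both tables, lay between 40.3 and 63.2, nearly all of it Pecam1.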

How the data were processed

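Per the labels' protocols, libraries were made from BaF3 RNA with an MGIEasy mRNA kit. The submitters' processing notes list the tools HISAT2, Bowtie2 and RSEM beside hg19 and mm10, without versions or roles. The authors deposited gene-level FPKM, with 3 libraries to a table, per the file headers. The tables held 17877 and 17868 genes, and 26 symbols that a spreadsheet had altered to dates were looked up again by Gene ID. Coordinates came from the RefSeq gene table of GRCm38.p6. Since FPKM keep no read totals, no counting interval is given. Relative depth used the smallest nonzero values at 25 gene lengths of at most 100 bases, each shared by at least 4 genes.

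Tests ran on log2(FPKM + 1), which understates changes of low genes, in limma 3.58.1 under R 4.3.3. A group term and a table term were fitted to all 6 libraries with a trend in the spread, 2-sided. Genes needed an FPKM of 1 or more in 2 or more libraries, and p-values were adjusted by Benjamini-Hochberg over those 11050 genes (threshold 0.05). There were 2 residual degrees of freedom, and the prior had a median of 3.82. Correlations of replicate differences across genes were -0.0988 (ICN and con), 0.326 (CTdel and con) and 0.236 (CTdel and ICN), so the numbers were not shown to pair all libraries. The table term was kept because each replicate number came as a table of its own.

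The members and lists were chosen with earlier results of these data known, and no list was tested as a whole. All values were given for the member of each role with the highest mean, for those with the smallest p in ICN and in CTdel, and for members whose sign in ICN differed between tables. From each related list came up to 2 genes with the smallest p per plasmid. The values of further members, Cdkn1a and the histone genes were picked with their values in view. Alternatives concerned the table term, pseudocount, filter, scaling, spread, libraries fitted and each library left out.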

Additional observations from a re-analysis of the deposited data

Results flagged for a closer look

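For 7 members both ICN libraries lay below the con library of their table and both CTdel libraries above it. This was noted from signs alone, and both contrasts share the con libraries. The fitted log2 changes were -0.40 in ICN and 0.21 in CTdel for Aurka, the centrosomal Aurora kinase, and -0.12 and 0.25 for the checkpoint kinase Bub1. For its adaptor Bub3 they were -0.14 and 0.02, and for Incenp of the passenger complex -0.35 and 0.29. The centromeric histone Cenpa had -0.83 in ICN and 0.12 in CTdel, Nuf2 of the NDC80 complex -0.65 and 0.08, and securin (Pttg1) -0.22 and 0.07. The sign pattern itself was not tested, and without its share over all genes the count cannot be called unusual. Some signs rest on near ties, with CTdel changes in replicate 1 of 0.00 for Pttg1 and 0.01 for Bub3. In the direct comparison of CTdel with ICN these genes had limma adjusted p from 0.663 (Aurka) to 0.843 (Bub3), and none passed. In CTdel the values for Bub3, Cenpa, Nuf2 and Pttg1 were less than their standard errors. The ICN changes of Bub1 and Incenp turned to 0.03 and 0.02 without ICN replicate 2, and the CTdel changes of Bub3, Cenpa and Nuf2 to -0.03, -0.21 and -0.23 without CTdel replicate 2.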

How the results depend on the processing

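No member passed in any comparison under another pseudocount, filter, scaling or spread, or with no replicate block, where 3 genes (ICN against con), 130 (CTdel against con) and 2 (CTdel against ICN) were called. In ICN against con the number of genes called was 4, against 0 without the filter on low values and 162 with only the 2 groups compared, and 11 to 1470 with a library left out. Its members called were 0, and 0 to 19 with a library left out, and their median ran from -0.92 to -0.17. In CTdel against con 156 genes were called, against 0 without the filter, 730 with only the 2 groups and 109 to 731 with a library left out. Its members called were 0, against 1 (Kif23) with only the 2 groups and 0 to 1 with a library left out, and their median ran from -0.27 to 0.28. In CTdel against ICN 2 genes were called, against 0 with a pseudocount of 0.1, 0 without the filter, 1 with a mean FPKM of at least 5 and 2 to 891 with a library left out. Its members called were 0 to 18 and their median 0.25 to 0.93 with a library left out. Without ICN replicate 2 the ICN signs of 5 members turned, and up to 16 CTdel signs turned without a library. The Incenp change in ICN ran from -0.72 to 0.02, turning without ICN replicate 2, and that of Nusap1 in CTdel from -0.14 to 0.71, turning without CTdel replicate 2 (-0.12) or con replicate 2 (-0.14). The cause was not tested. Each comparison rests on 2 libraries a group. A fit with a library left out takes the lone library of its group to vary like the other groups. With unknown read totals the counting error of a value cannot be given.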
